A study of Mus musculus with 7 samples.

Results

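miR-183, miR-96 and miR-182, which form a gene cluster, and miR-203 are small regulatory RNAs best known from sensory and covering epithelia, and they were followed here in extracellular vesicles, the membrane particles that cells shed, from mouse visceral fat. The 4 mature miRNAs were taken by name: mmu-miR-182-5p, mmu-miR-183-5p, mmu-miR-96-5p and mmu-miR-203-3p. All 4 are present among the 820 miRNAs of the deposited table. The mice were male ApoE-/- animals, which lack apolipoprotein E and are prone to atherosclerosis, and were 8 weeks old. They ate a high-fat diet for 12 weeks either alone (HFD, n = 4 libraries) or combined with a nicotine dose of 2 mg/kg/day (HFD+Ni, n = 3 libraries). Both groups therefore share the gene deletion and the diet, and no group on ordinary food was analysed here. All 7 libraries carry the batch label 1, and the labels do not say whether a library came from 1 animal or from a pool.

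A library held 53626 to 1055902 miRNA reads, and levels are given as rpm, reads scaled to a library total of 1000000. These totals are sums over the listed miRNAs. Some miRNAs have near-equal levels, such as miR-10a-5p and miR-10b-5p (HFD means 12176 and 12175 rpm), so a read may be counted more than once. One read was worth 18.6 rpm in HFD+Ni replicate 1, the shallowest library, and 0.947 rpm in HFD replicate 2, the deepest. Vesicles were collected from whole epididymal fat, so a lower level cannot be told apart from fewer vesicles of the cell type that releases the miRNA. All 8 miRNAs of a white and brown adipocyte list had reads in the series, with a summed level of 42722 to 65070 rpm across the libraries. miR-193b-3p and miR-455-3p of that list had no read in some libraries. Its miR-103-3p and miR-107-3p had near-equal levels (HFD means 9500 and 9499 rpm), so the sum may count the same reads under both names. How much of the sum comes from adipocytes was not tested.

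miRNAs are loaded into Argonaute and pair with messenger RNAs mainly through their seed, bases 2 to 8 from the 5′ end, which lowers the stability or translation of the target. Mir183, Mir96 and Mir182 are processed from a common primary transcript and are prominent in the retina, the inner ear and other sensory organs. miR-203 is abundant in the epidermis, where it limits the renewal capacity of keratinocytes by repressing the transcription factor p63. In mouse fat, miR-182 and miR-203 are known as miRNAs of brown adipocytes that favour their differentiation.

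The mature sequences, as held by RefSeq on GRCm38.p6, are shown with the seed in capitals because the cluster members differ there by single bases:
miR-182-5p: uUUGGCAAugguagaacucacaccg
miR-96-5p: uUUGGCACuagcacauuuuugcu
miR-183-5p: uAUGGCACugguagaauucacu
miR-203-3p: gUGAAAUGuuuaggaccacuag

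Counted from 1 at the 5′ end, miR-182-5p and miR-96-5p differ within their first 8 bases by A8C, with the base of the first-named miRNA written first. miR-183-5p and miR-96-5p differ there by A2U, and miR-182-5p and miR-183-5p by U2A and A8C. No 2 of the 4 therefore share a seed, although the cluster members are close relatives. miR-182-5p and miR-183-5p also share the run UGGUAGAA at positions 9 to 16, directly behind the seed. The seed of miR-203-3p differs from those of the cluster at most positions. Among the mature mouse miRNAs of the reference 1 other, miR-1271-5p, has the seed of miR-96-5p, and it is not among the 820 listed. None of the 4 members had a partner in the table whose reads differed by at most 5% or 2 reads in every library, so their reads were not shared as a whole with another miRNA.

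The cluster lies on the minus strand of chromosome 6 on GRCm38. Mir182 occupies 30165918 to 30165992, Mir96 30169446 to 30169551 and Mir183 30169668 to 30169737, a span of 3820 bases. In GENCODE M21 no gene overlaps any of the 3 precursors, and the nearest coding genes are Nrf1 on the other strand and Ube2h on the same strand. Among genes annotated there as long intergenic noncoding RNA, the nearest is Rncr4, 3156 bases beyond Mir183. Other types of noncoding gene were not searched for the nearest. Mir203 occupies 112130880 to 112130955 on the plus strand of chromosome 12, between the coding genes Aspg and Kif26a, and also overlaps no other gene in GENCODE M21.

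The opposite arms miR-182-3p, miR-96-3p and miR-203-5p are not among the 820 listed, so arms could be compared for Mir183 alone. The Mir183 hairpin is shown with its arms in capitals, the 5p arm first:
Mir183: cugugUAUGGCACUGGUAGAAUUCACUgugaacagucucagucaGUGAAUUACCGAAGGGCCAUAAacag

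Over the 7 libraries miR-183-5p had 397 reads and miR-183-3p had 1 read, which was in HFD replicate 2. miR-203-3p, the 3p arm of its precursor, had 1043 reads. RefSeq also places miR-203b-3p at 112130887 to 112130908 on chromosome 12, opposite the Mir203 hairpin on the minus strand, and it had 70 reads. It was at 37.1, 47.4, 17.0 and 26.0 rpm in HFD replicates 1 to 4, at 51.2 and 37.2 rpm in HFD+Ni replicates 2 and 3, and without a read in HFD+Ni replicate 1, where a count of 0 allows up to 3 reads, or 55.9 rpm.

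miR-203-3p had the highest mean rpm of the 4 and was the most even. It was at 520, 650, 707 and 480 rpm in HFD replicates 1 to 4 and at 1007, 461 and 557 rpm in HFD+Ni replicates 1 to 3. The highest value was in HFD+Ni and so was the lowest, and the groups overlap. Its highest library stood 2.19-fold above its lowest, and 10.3% of the 387 tested miRNAs varied less over the libraries (SD of log2(rpm + 1), 0.39). Scarcer miRNAs vary more through counting error, and the share among miRNAs at a like level was not computed. In each library it ranked between 66 and 91 by level.

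miR-182-5p, the next in level, varied far more. It was at 86.6, 351, 162 and 325 rpm in HFD replicates 1 to 4 and at 1455, 222 and 111 rpm in HFD+Ni replicates 1 to 3. A single HFD+Ni library held the highest level, 4.14-fold above the next highest, which was HFD replicate 2. The other HFD+Ni libraries lay inside the HFD range.

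miR-183-5p, its cluster partner, was at 37.1, 244, 221 and 364 rpm in HFD replicates 1 to 4 and at 821, 108 and 177 rpm in HFD+Ni replicates 1 to 3. It too was highest in HFD+Ni replicate 1, 2.26-fold above HFD replicate 4, and lowest in HFD replicate 1, where it rests on 3 reads. miR-96-5p, the scarcest member, was at 61.9, 56.8, 111 and 13.0 rpm in HFD replicates 1 to 4 and at 354, 73.9 and 55.8 rpm in HFD+Ni replicates 1 to 3. Its highest value was again in HFD+Ni replicate 1, from 19 reads, and its lowest in HFD replicate 4, from 1 read.

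**Figure D1:**
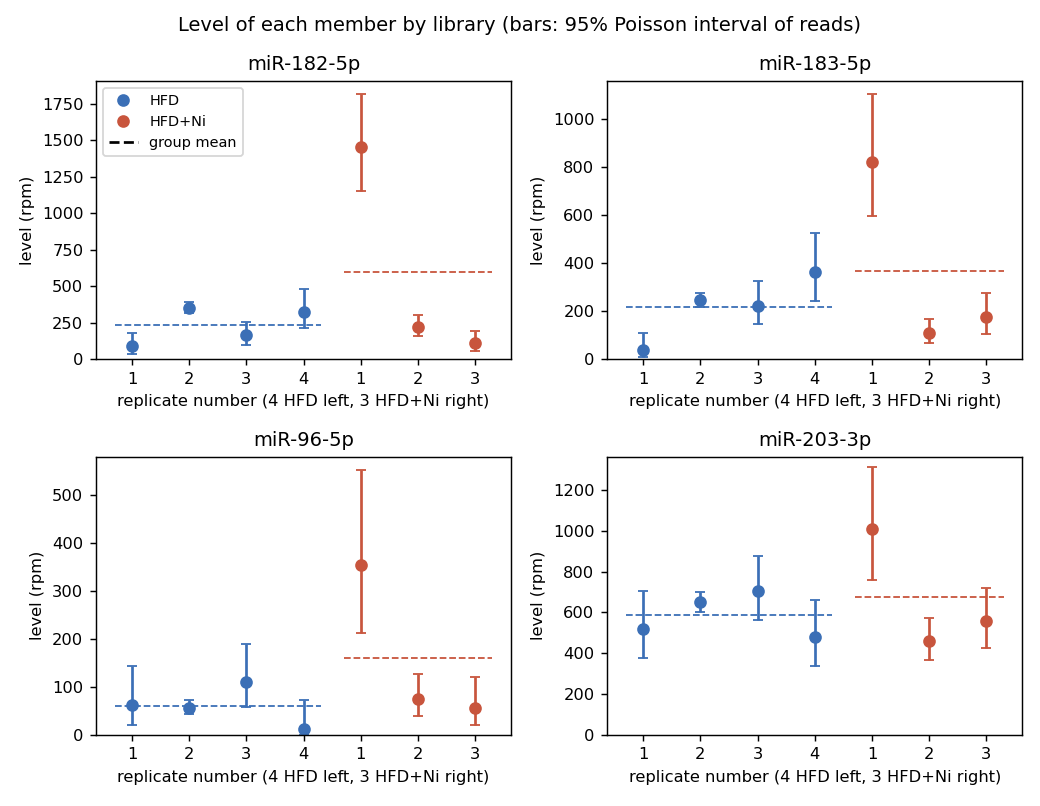
Level in rpm (vertical axis) of each member in the 4 HFD and 3 HFD+Ni libraries (horizontal axis, replicate number), with the exact 95% Poisson interval of the reads and dashed group means. HFD+Ni replicate 1 is the highest point in all 4 panels, while the other HFD+Ni points lie among or near the HFD points.

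All 4 members were thus highest in HFD+Ni replicate 1, as were 23.3% of the 387 tested miRNAs. Tested miRNAs averaged 5 rpm or more, which some reached only through that library. miR-1897-5p, for example, was at 55.9 rpm there from 3 reads and at 0.95 rpm or less elsewhere. The share among miRNAs at levels like those of the members was not computed. For the cluster members the excess was larger than counting error. The exact 95% Poisson interval of miR-182-5p there was 1150 to 1815 rpm, from 78 reads, above the interval of every other library. For miR-183-5p it was 596 to 1101 rpm, from 44 reads, and for miR-96-5p 213 to 553 rpm, and both also lay above the intervals of all other libraries. For miR-203-3p, at 54 reads, the interval of 756 to 1314 rpm overlapped that of HFD replicate 3, 563 to 876 rpm. These intervals hold the error of counting alone, as copies made by PCR from the same molecule are not independent.

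Mature lengths were 22 to 25 bases, so no length correction was made between members. Whether the 4 sequences were captured equally well in the libraries was not tested, so the order below is one of rpm. In HFD the means were 589 ± 107 rpm for miR-203-3p (SD, n = 4), 231 ± 128 rpm for miR-182-5p, 217 ± 135 rpm for miR-183-5p and 60.6 ± 40.0 rpm for miR-96-5p. Of neighbours in this order, miR-182-5p and miR-183-5p differed by less than their SD, while the other neighbours differed by more. In HFD+Ni the means were 675 ± 292, 596 ± 746, 368 ± 393 and 161 ± 167 rpm in that order (SD, n = 3), and all neighbouring means differed by less than the larger of their SDs. Library by library, miR-203-3p was the highest member in 6 of 7, the exception being HFD+Ni replicate 1, where miR-182-5p led. miR-96-5p was the lowest member in 6 of 7, the exception being HFD replicate 1, where miR-183-5p was lowest.

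The 3 cluster members summed to 508 ± 233 rpm in the HFD group and to 1126 ± 1303 rpm with nicotine. By library the sum was 186, 653, 494 and 701 rpm in HFD replicates 1 to 4 and 2629, 404 and 344 rpm in HFD+Ni replicates 1 to 3. In share of all miRNA reads it ran from 0.0186% in HFD replicate 1 to 0.263% in HFD+Ni replicate 1 (exact binomial 95% interval 0.221% to 0.310%). The next highest share, in HFD replicate 4, was 0.0701%.

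Although they come from a common transcript, the measured ratio of the cluster members varied between libraries. miR-182-5p stood above miR-183-5p in 4 libraries and below it in 3. Their ratio ran from 0.632 in HFD+Ni replicate 3 (12 against 19 reads) to 2.33 in HFD replicate 1 (7 against 3 reads). For the share of miR-182-5p among cluster reads, the exact binomial 95% intervals of these 2 libraries overlap. The first reached 49.8% and the second began at 21.3%, so these extremes are not separated beyond counting error. The interval of HFD replicate 3 ended at 46.3%, below those of HFD replicate 2 and HFD+Ni replicate 1. That of HFD+Ni replicate 3 also lay below that of HFD replicate 2. The share of miR-96-5p among cluster reads was 8.71% in HFD replicate 2, where the depth gives an exact binomial 95% interval of 6.71% to 11.1%. In HFD replicate 3 it was 22.4% (12.5% to 35.3%) and in HFD replicate 4, from 1 read, 1.85% (0.0469% to 9.89%). The interval of HFD replicate 3 overlaps neither that of HFD replicate 2 nor that of HFD replicate 4. Those of HFD replicates 2 and 4 overlap each other, and no test over all libraries was made. HFD+Ni replicate 1 did not stand apart in this make-up: miR-182-5p took 55.3% of its cluster reads, miR-183-5p 31.2% and miR-96-5p 13.5%, each within the range of the other 6 libraries except for the share of miR-182-5p, where the next highest was 54.9%.

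**Figure D2:**
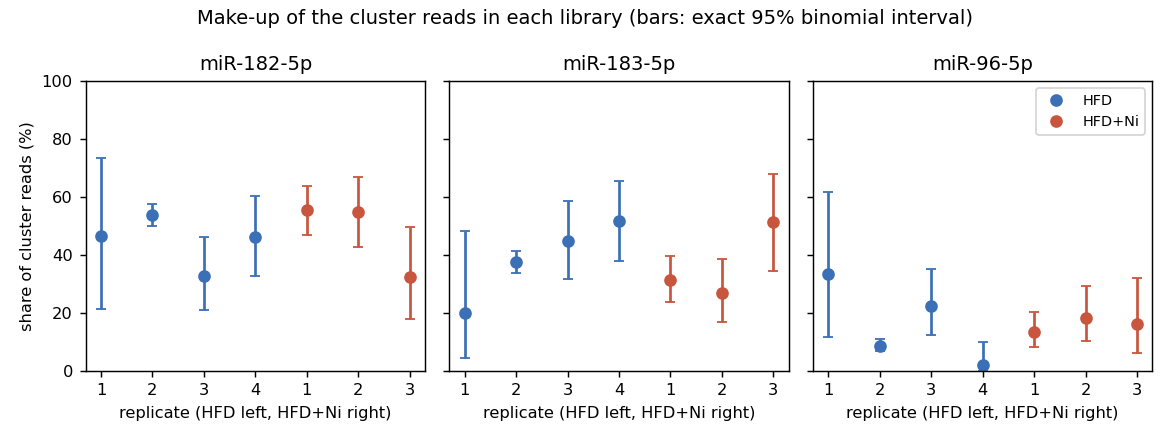
Share of the cluster's reads (vertical axis, %) taken by miR-182-5p, miR-183-5p and miR-96-5p in each of the 7 libraries (horizontal axis, replicate number), with exact 95% binomial intervals. The shares of miR-96-5p run from 1.85% in HFD replicate 4 to 33.3% in HFD replicate 1, and HFD+Ni replicate 1 lies near or within the range of the others in all 3 panels.

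The miR-200 family and miR-205-5p, the miRNAs by which epithelial RNA is usually recognised, were high in the same library. Their 6 listed members were all highest in HFD+Ni replicate 1, at 4.41 to 8.84 times the median of the other 6 libraries, and summed to 45146 rpm there against 4813 to 13605 rpm elsewhere. Against the same median, miR-182-5p stood at 7.59 times, miR-183-5p at 4.12 times, miR-96-5p at 5.97 times and miR-203-3p at 1.87 times. The epithelial sum was 17.2 times the cluster sum in HFD+Ni replicate 1, inside the 8.20 to 27.6 of the other libraries. It was 44.8 times miR-203-3p there, outside the 9.26 to 19.3 of the other libraries. The cluster was therefore high in about the measure of the epithelial miRNAs in that library, and miR-203-3p was high by less.

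Other marker lists in HFD+Ni replicate 1 went in both directions or lay inside the range of the other libraries. The neural and sensory list was at 8932 rpm against 753 to 2796 rpm elsewhere, with 3 of its 7 members highest there, and the X-linked testis and sperm list at 970 rpm against 0 to 845 rpm. No miRNA of the leukocyte list (6 listed), the endothelial list (2) or the adipocyte list (8) was highest there. The leukocyte list summed to 2461 rpm there against up to 5964 rpm elsewhere, and the adipocyte list to 42722 rpm against up to 65070 rpm. The erythrocyte list had no read there. The part of other cell types, and of the low depth of this library, in the level of the 4 members was not tested.

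**Figure D3:**
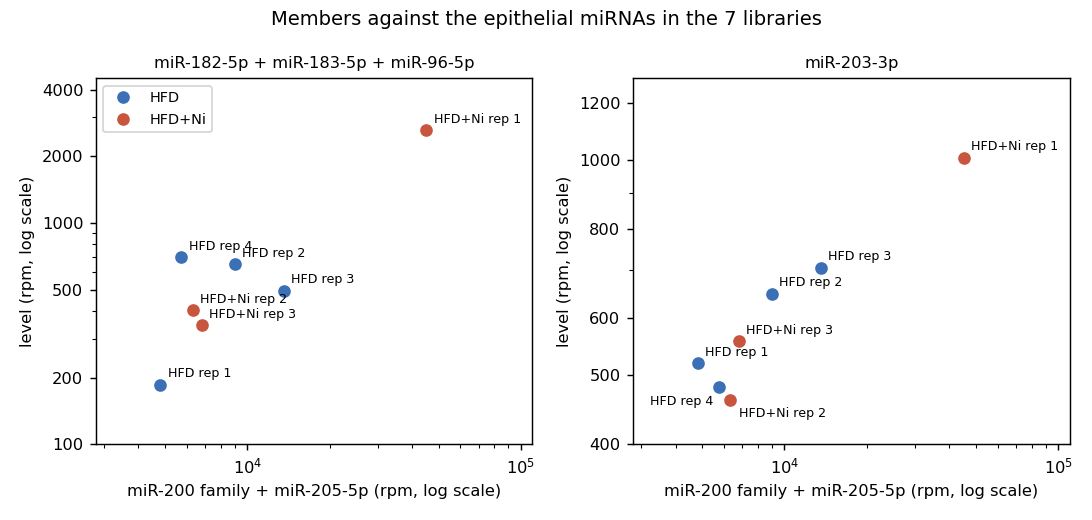
Level of the cluster sum (left) and of miR-203-3p (right) in rpm against the summed miR-200 family and miR-205-5p in rpm, all axes on log scales with different vertical ranges, 1 point per library. HFD+Ni replicate 1 is at the upper right in both panels, and among the other 6 libraries miR-203-3p is highest in HFD replicates 2 and 3, which also hold the most epithelial miRNAs, whereas the cluster is highest in HFD replicate 4.

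A ranking of 383 other tested miRNAs by Pearson r of log2(rpm + 1) over the 7 libraries described which levels ran most like each member. For miR-203-3p the 5 nearest included miR-200b-3p (r = 0.98), miR-200a-3p (0.97) and miR-200c-3p (0.97), which restrain the loss of epithelial character. Without HFD+Ni replicate 1 these values were 0.94, 0.92 and 0.91 over 6 libraries, and miR-200b-3p remained first. The other 2, miR-3076-3p and miR-190b-5p, had 10 and 12 reads in all.

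For miR-182-5p the nearest were miR-141-5p (r = 0.93, and 0.90 without HFD+Ni replicate 1) and miR-205-5p (0.91, and 0.68 without it), a miRNA of stratified epithelia. The next 3, miR-3473h-5p, miR-1897-5p and miR-455-5p, held 4, 4 and 25 reads. miR-141-5p, the minor arm of a miR-200 family precursor, was at 503 rpm in HFD+Ni replicate 1 and at 0 to 39.0 rpm elsewhere. For miR-183-5p the nearest were miR-187-3p (0.88), miR-106b-3p (0.86), miR-184-3p (0.85), miR-10b-3p (0.84) and miR-205-5p (0.84). Without HFD+Ni replicate 1 these values were 0.78, 0.85, 0.87, 0.71 and 0.72. For miR-96-5p they were miR-500-3p (0.95), miR-199a-5p and miR-199b-5p (0.95 each, with the same level in every library), miR-429-3p (0.93) and miR-672-5p (0.90). In the same order, the values for miR-96-5p without that library were 0.95, 0.89, 0.89, 0.90 and 0.88. Of these, miR-199a-5p belongs to the stromal and smooth muscle list and miR-429-3p to the miR-200 family. miR-184-3p, miR-500-3p and miR-672-5p had 32, 39 and 53 reads in all. All of the miRNAs named here as nearest were highest in HFD+Ni replicate 1.

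Among the members, the 7-library r was 0.85 for miR-182-5p with miR-183-5p and 0.73 without HFD+Ni replicate 1. For miR-182-5p with miR-96-5p it was 0.45 and turned to -0.45 without that library, and for miR-183-5p with miR-96-5p it was 0.27 and -0.42. With miR-203-3p it was 0.69 for miR-182-5p, 0.66 for miR-183-5p and 0.81 for miR-96-5p over 7 libraries, and 0.00256, 0.29 and 0.52 without HFD+Ni replicate 1. The 7-library values share 1 extreme library.

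For the question of whether nicotine changed the vesicle cargo, no member passed the test. Each was fitted with limma across the 387 miRNAs that averaged 5 rpm or more, a filter that all 4 passed. The log2 fold change on the log2(rpm + 1) scale, positive where HFD+Ni is higher, was 0.72 for miR-182-5p (SE 0.85, 95% interval -1.14 to 2.58, limma adjusted p = 0.856). It was 0.60 for miR-183-5p (SE 0.90, -1.37 to 2.56, limma adjusted p = 0.891). For miR-96-5p it was 1.23 (SE 1.02, -1.0 to 3.47, limma adjusted p = 0.830), and for miR-203-3p 0.13 (SE 0.42, -0.78 to 1.04, limma adjusted p = 0.967). Every interval includes 0, and that of miR-203-3p is the narrowest of the 4.

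limma called 0 of the 387 miRNAs at adjusted p under 0.05 (0%), and 11 (2.84%) lay at unadjusted p under 0.05, none of them a member. On reads recovered from the rpm values, edgeR called 0 (0%), with 28 at unadjusted p under 0.05, and DESeq2 called 1 (0.258%), with 19 at unadjusted p under 0.05. The 1 miRNA was not a member. The 2 groups were fully separated for 20 of the 387 (5.17%) and for 0 of the 4 members. All 4 members had a log2 fold change above 0, as did 52.7% of all tested miRNAs. The median was 0.66 for the members and 0.04 for all tested.

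**Figure D4:**
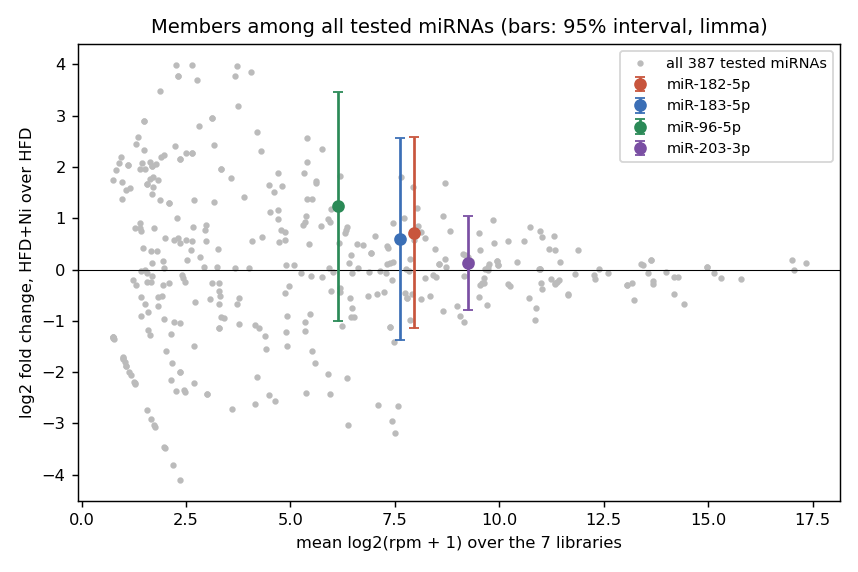
log2 fold change of HFD+Ni over HFD (vertical axis) against mean log2(rpm + 1) (horizontal axis) for the 387 tested miRNAs in grey, with the 4 members in colour and their 95% limma intervals. The 4 points lie above 0, at 0.13 to 1.23, and every interval includes 0.

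The shared direction rested on a single library. Without HFD+Ni replicate 1 the log2 fold change was -0.35 for miR-182-5p, -0.25 for miR-183-5p and -0.20 for miR-203-3p, and it stayed above 0 for miR-96-5p, at 0.42. Then 1 of 4 members lay above 0, against 60.1% of the miRNAs tested, with medians of -0.23 and 0.25. The mean of the other HFD+Ni libraries was 0.721 times the HFD mean for miR-182-5p, 0.657 times for miR-183-5p, 1.07 times for miR-96-5p and 0.864 times for miR-203-3p. Without HFD replicate 1, in which miR-183-5p rests on 3 reads, its log2 fold change was -0.11. Without HFD replicate 4, in which miR-96-5p rests on 1 read, that of miR-96-5p was 0.63.

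**Figure D5:**
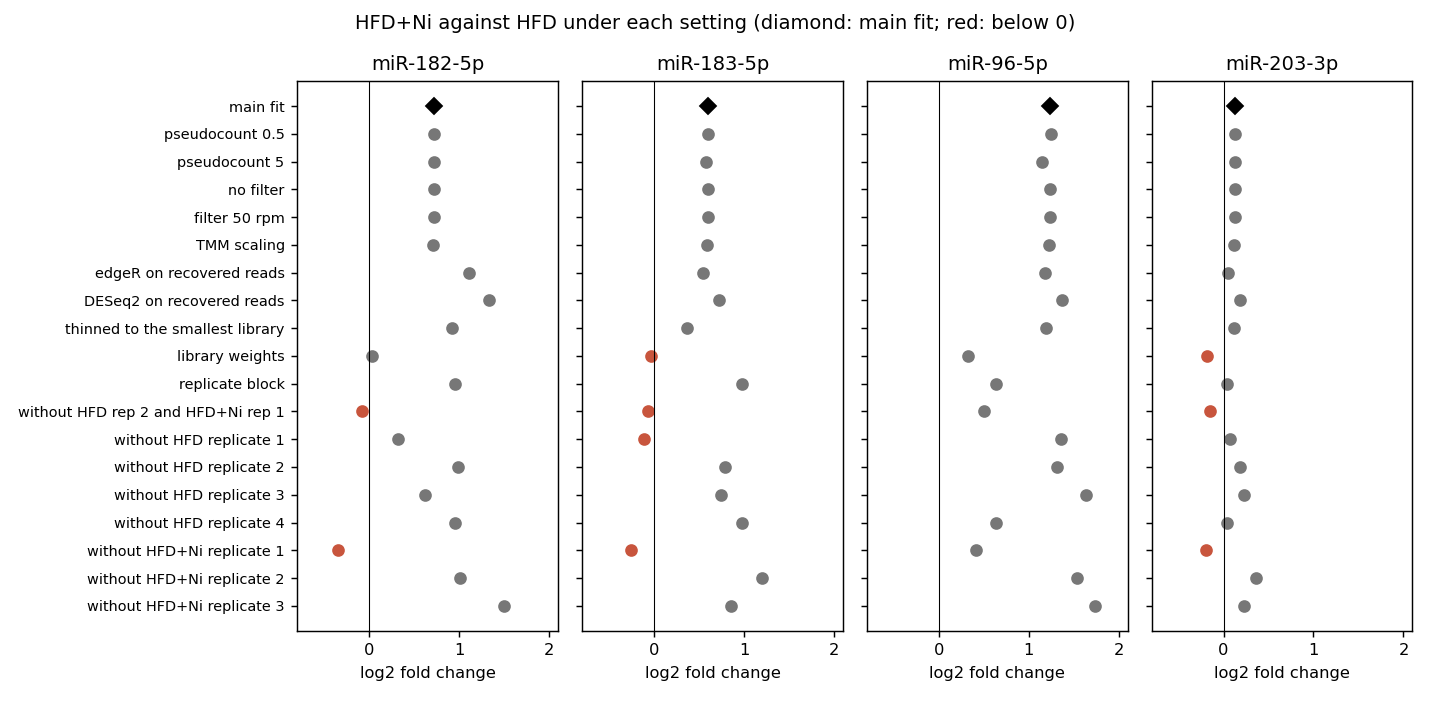
log2 fold change of HFD+Ni over HFD (horizontal axis) for each member under the main fit (diamond) and each alternative setting (rows), with values below 0 in red. The points below 0 are at the settings without HFD+Ni replicate 1, alone or along with HFD replicate 2, for 3 members, with library weights for miR-183-5p and miR-203-3p, and without HFD replicate 1 for miR-183-5p.

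In the authors' deposited table the log2 fold changes were 1.21 for miR-182-5p, 0.65 for miR-183-5p, 1.23 for miR-96-5p and 0.13 for miR-203-3p, with an FDR of 1 for each. A separate list of 15 changed miRNAs from the authors holds 0 members. It does not rest on the same 7 libraries, as HFD replicate 2 is missing from it and 1 further column of sample values matches no label.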

How the data were processed

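Small RNA libraries of 4 HFD and 3 HFD+Ni samples were grouped by their treatment label. The members, marker lists and comparisons were chosen with earlier results of these data known. The deposited table is named TPM, but its values are rpm: each deposited column sums to 1000000, and 100% of its values are whole multiples of 1 step within 0.1 read, so reads were recovered by division. The genome GRCm38 (mm10) and edgeR are named in the submitters' processing notes, and no source used here names an aligner, a counter or a miRNA annotation. For each miRNA the deposited table adds a p-value, an FDR and a log2 fold change, all computed by the authors. The deposited list lacks HFD replicate 2, and 1 column of sample values in it matched no label and was not used.

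HFD+Ni was compared with HFD by limma 3.58.1, run in R 4.3.3 with a mean-variance trend on log2(rpm + 1), two-sided, adjusted by Benjamini-Hochberg over 387 miRNAs that averaged 5 rpm or more. edgeR 4.0.16 and DESeq2 1.42.0 on recovered reads, other pseudocounts, filters, scaling, thinning, library weights, a replicate block and left-out libraries were alternatives. The p-values weigh the difference between groups against the spread between libraries, which may be partly technical. Named miRNAs are the members, other products of their precursors, seed partners, the epithelial list and the 5 most alike per member. Of 820 listed miRNAs, 696 matched the RefSeq sequence table by name, all 4 members among them.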

Additional observations from a re-analysis of the deposited data

Results flagged for a closer look

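In the HFD group, miR-183-3p, the minor arm of Mir183, was at 0.95 rpm in HFD replicate 2 and at 0 in the other libraries. The gap to the other libraries spans the whole range of the group. The value is 1 read in the deepest library, below what 1 read is worth elsewhere. It was the 1 such value among 17 quantities examined (the 4 members, miR-183-3p, miR-203b-3p, the cluster sum and 10 summed marker lists). The rule is set so that chance marks about 5% of groups. That rate does not apply here, as reads in 1 library with none in the others meet the rule by construction. The HFD+Ni group, with 3 libraries, was too small for this rule.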

How the results depend on the processing

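No member passed the adjusted threshold under any of 18 alternatives. The adjusted p ranged from 0.699 to 0.995 for miR-182-5p and miR-183-5p, from 0.699 to 0.953 for miR-96-5p and from 0.798 to 0.998 for miR-203-3p. With 1 library left out at a time, the log2 fold change ran from -0.35 to 1.50 for miR-182-5p, from -0.25 to 1.20 for miR-183-5p, from 0.42 to 1.74 for miR-96-5p and from -0.20 to 0.36 for miR-203-3p, and limma called 0 miRNAs each time. Every value below 0 here came without HFD+Ni replicate 1, apart from -0.11 for miR-183-5p without HFD replicate 1. When HFD+Ni replicate 1 was left out along with HFD replicate 2 it was -0.076, -0.066 and -0.15 for miR-182-5p, miR-183-5p and miR-203-3p, and with library weights -0.038 for miR-183-5p and -0.19 for miR-203-3p; the cause was not tested. Library weights also took miR-182-5p from 0.72 to 0.031 and miR-96-5p from 1.23 to 0.32. For miR-182-5p edgeR gave 1.11 and DESeq2 1.33, for miR-203-3p edgeR gave 0.046, and thinning to the smallest library gave 0.37 for miR-183-5p. The sign of miR-96-5p was the same in all 18. DESeq2 called 1 miRNA where limma called 0.

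The labels state no pairing by replicate number. Deviations of same-numbered libraries correlated at 0.0156, 0.189 and -0.0991, and 3 of 6 libraries were most like their own number. With so few libraries these values cannot decide whether same-numbered libraries are paired. With the replicate block on replicates 1 to 3, log2 fold changes were 0.95, 0.98, 0.63 and 0.04 for miR-182-5p, miR-183-5p, miR-96-5p and miR-203-3p, and 0 miRNAs were called. Depth limits miR-96-5p most, with 1 to 60 reads per library.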
